A study of Mus musculus with 2 samples.

Results

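Intermediate filament genes were compared between cultured mouse neural retinal progenitor cells (mNRPCs) and mouse retina. The genes were chosen by name and are 10 of 31253 in the table, namely Vim, Nes, Gfap, Nefl, Nefm, Nefh, Ina, Krt8, Krt18 and Lmna. All 10 were found. The mNRPC library was made from progenitors that had been taken from adult retina, per the study's methods, and grown to passage 24. Their medium held the mitogen bFGF (basic fibroblast growth factor) together with CHIR99021, which blocks glycogen synthase kinase 3. The other library was made from whole retina tissue. Both are labelled as C57BL/6 and carry no transgene in their labels. Each group had 1 library, so no spread between replicates is known, no p-value is given, and each difference is one between these libraries. The retina holds many cell types, and in bulk libraries fewer cells of a type and less RNA per cell cannot be told apart.

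Intermediate filaments are the rope-like part of the cytoskeleton, and each cell type makes its own mix of subunits. Type I and type II proteins are the keratins of epithelia, which polymerise only as pairs of one of each type. Type III includes vimentin and glial fibrillary acidic protein (GFAP). Type IV includes nestin and the neuronal proteins, namely the light, medium and heavy neurofilament chains and α-internexin. Type V are the lamins, which line the inside of the nuclear envelope. In the retina, vimentin is known from Müller glia and progenitors, nestin from progenitors, GFAP from astrocytes and stressed Müller glia, and neurofilaments from the axons of ganglion cells and from horizontal cells.

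Values were FPKM, fragments normalised to transcript length and library size, so that levels of different genes can be set beside each other. The rows of a gene were summed. From the smallest values the mNRPC library was estimated at 6.47e+06 fragments and the retina library at 5.07e+06. Fragment numbers given below are estimates from these depths, and every interval is a 95% interval that covers counting error only. A level at which 3 fragments would be found is given as the limit of detection. Zeros and very low values in this table may include failed estimates. Rps19, a ribosomal protein gene used by every cell, stood at 10.2 FPKM in mNRPCs but 0.0586 FPKM in retina. Genes with a zero are therefore described as listed at 0. The labels were compared with marker genes. The 7 rod genes summed to 18006 FPKM in retina and 7.11 FPKM in mNRPCs. The progenitor gene Sox2 was at 231 FPKM in mNRPCs and 18.5 FPKM in retina, and the proliferation gene Top2a at 79.7 and 0.0933 FPKM.

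The 10 genes differed in both directions. Vim, Nes and Lmna were higher in mNRPCs. Gfap, Nefl, Nefm, Nefh, Ina and Krt18 were higher in retina. Krt8 was low in both libraries. In mNRPCs the levels of Nefl and Nefm were above 0, whereas Gfap, Nefh, Ina and Krt18 were listed at 0, so the call of these 4 rests on zeros that may be failed estimates. Ratios are given as log2 values, with 1 added to the FPKM of both libraries, and positive where mNRPCs were higher. Genes with a log2 ratio of at least 1 in size, which is 2-fold, were called higher or lower. By this rule 3 members were higher in mNRPCs, 6 were lower and 1 lay between. Among all 13780 genes with at least 1 FPKM in either library, 24.5% were higher and 30.0% lower. After each library was scaled to the same FPKM sum these shares were 18.4% and 42.4%, and the members' counts were 3 and 7. The median log2 ratio was −3.09 over the members and −0.12 over all genes compared. Of the 10 members, 9 reached 1 FPKM in at least 1 library and Krt8 did not. In mNRPCs 5 members were at 1 FPKM or more, and in retina 8 were. The table listed 4 members at 0 in mNRPCs (Gfap, Nefh, Ina and Krt18) and 0 members at 0 in retina. In the plot of FPKM by gene the libraries lie closest for Krt8.

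**Figure D1:**
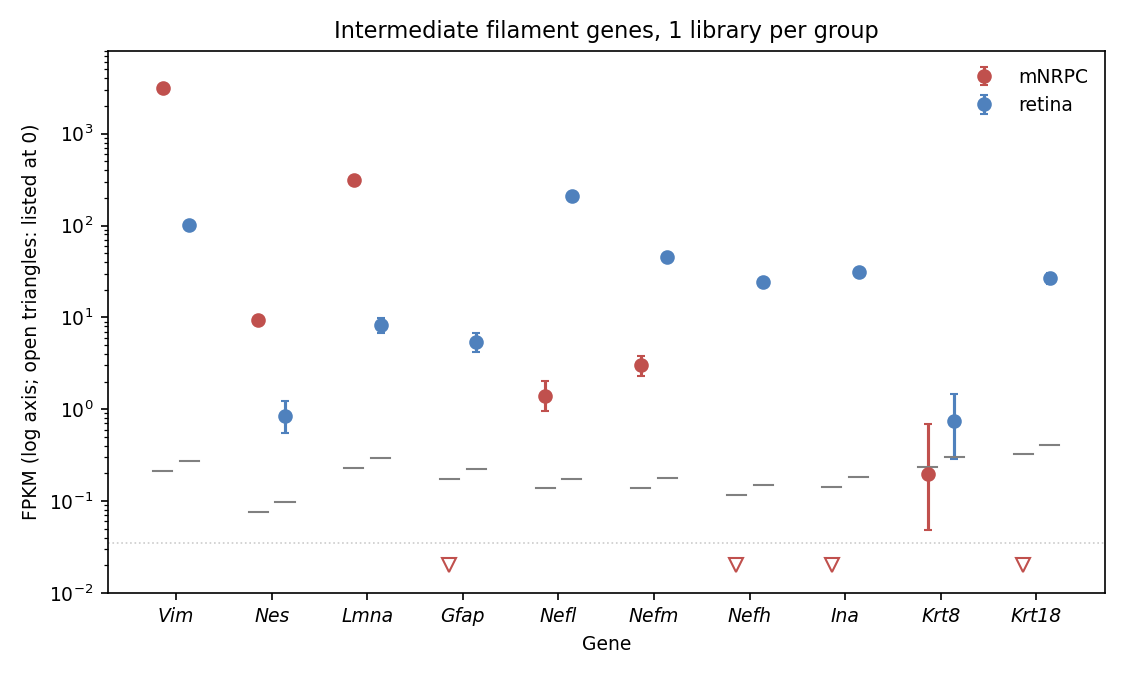
FPKM of the 10 intermediate filament genes on a log axis in the mNRPC library (red) and the retina library (blue), 1 library each. Bars are 95% counting intervals, short grey lines mark the level of 3 fragments, and open triangles mark genes listed at 0. Vim at 3138 FPKM in mNRPCs and Nefl at 208 FPKM in retina are the highest members of their libraries.

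Vim encodes vimentin, the type III protein of progenitors, glia and mesenchymal cells. Its level was 3138 FPKM in mNRPCs and 101 FPKM in retina, from about 44524 and 1125 fragments. This was a 31.0-fold difference (29.2 to 32.9), or 4.94 on the log2(FPKM + 1) scale. With both libraries at the same FPKM sum the log2 ratio of Vim was 4.44, outside the counting interval. Vim was the gene of rank 14 by FPKM in mNRPCs and of rank 605 in retina. Of all genes compared, 150 had a higher log2 ratio. In mNRPCs Vim was the bulk of the family's transcripts, while in retina Nefl was 2.05 times Vim.

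The 1 Vim transcript row matched Vim-201 of GENCODE M21, with 9 exons at chr2:13573952-13582826 on the plus strand of GRCm38. The study's Q-PCR primers for Vim are shown because both match this transcript. Their 98 bp product lies in the coding sequence and runs from exon 1 to exon 3.
Vim forward: gagaaattgcaggaggagatg
Vim reverse: tcaagacgtgccagagaa

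Nes encodes nestin, a type IV protein that copolymerises with vimentin and is a marker of neural progenitors. Its level was 9.42 FPKM in mNRPCs and 0.841 FPKM in retina, from about 373 and 26.1 fragments. This was an 11.2-fold difference (7.52 to 17.4), or 2.50 on the log2(FPKM + 1) scale, which understates a gene under 1 FPKM. Nes followed the direction of Vim at a much lower level, with 333 Vim FPKM for each Nes FPKM in mNRPCs and 120 in retina. Its log2 ratio was smaller than that of 1035 genes, so the rise of Nes was less far out among all genes than that of Vim. Nes lies at chr3:87971093-87980451 on the plus strand, in 4 exons.

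Genes of progenitors and of mesenchymal cells were set beside Vim. For scale, 24.5% of all genes compared were higher in mNRPCs and 30.0% lower. Of the 6 progenitor and proliferation genes Sox2, Pax6, Six3, Ccnd1, Mki67 and Top2a, 4 were higher in mNRPCs, and the eye field genes Pax6 (123 and 101 FPKM) and Six3 (39.7 and 33.2 FPKM) lay within 2-fold. Vimentin is also a protein of mesenchymal cells. Of 7 mesenchymal genes, 2 were higher in mNRPCs, the transcription factors Twist1 (83.7 and 0.185 FPKM) and Snai2 (8.54 FPKM, listed at 0 in retina), and 5 were not called. The collagen genes Col1a1 (1.35 and 0.552 FPKM) and Col1a2 (0.0843 and 0.952 FPKM) were not called, and Lum was listed at 0 in both. Of 5 genes of pericytes and smooth muscle, which also make vimentin, 2 were higher in mNRPCs, Pdgfrb (4.49 and 1.24 FPKM) and Acta2 (10.1 and 4.39 FPKM), and Rgs5 was lower (listed at 0, and 8.16 FPKM in retina). Of 5 endothelial genes, 0 were higher in mNRPCs and 4 were lower, with sums of 0.132 and 38.4 FPKM. The part of all these genes in the Vim level was not tested.

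Gfap encodes the type III protein of astrocytes and stressed Müller glia. It was listed at 0 in mNRPCs, where 3 fragments would stand at 0.175 FPKM. This zero may be a failed estimate, so it does not show that Gfap was absent from mNRPCs. In retina it was at 5.33 FPKM (4.20 to 6.76), from about 71.5 fragments. The log2(FPKM + 1) ratio was −2.66. It was −5.76 with a pseudocount of 0.1 and −3.74 with both libraries at the same FPKM sum. Vim was 19.0 times Gfap in retina. Of 3 Gfap rows, the transcript of the 430-residue protein, Gfap-201, held 88.0% of the retina level at 4.69 FPKM. The transcript with another 3′ end, Gfap-202, which codes for 428 residues, held 4.64% at 0.247 FPKM, close to its limit of 0.228 FPKM. A row with no matched length held 7.41%.

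The Gfap primers both match Gfap-201 only. They are shown because their 108 bp product lies in the 3′ UTR of exon 9 and misses Gfap-202. Gfap-201 lies at chr11:102887336-102897131 on the minus strand.
Gfap forward: atacccttcaccttcaactaac
Gfap reverse: ctctgctcatctttcctcttc

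Glial markers were set beside Gfap. For scale, 24.5% of all genes compared were higher in mNRPCs and 30.0% lower. The 8 Müller glia genes were all lower in mNRPCs, with a sum of 86.7 FPKM against 2268 FPKM in retina. Kcnj10, the potassium channel of Müller glia, was listed at 0 in mNRPCs, and the retinaldehyde-binding protein gene Rlbp1 was at 0.0986 FPKM. Glul (glutamine synthetase, 31.4 FPKM), Clu (32.6 FPKM) and Dkk3 (18.3 FPKM) kept higher levels in mNRPCs, at 3.49%, 9.87% and 13.3% of retina. Of 7 astrocyte genes, 1 was higher in mNRPCs and 3 were lower, with sums of 106 and 51.7 FPKM. Gja1 (connexin 43) alone gave 104 FPKM of this mNRPC sum, and was at 1.88 FPKM in retina. Pax2, which defines retinal astrocytes, was listed at 0 in mNRPCs and at 0.0669 FPKM in retina. The genes lower in mNRPCs were S100b (0.0875 and 6.60 FPKM), the glutamate transporter gene Slc1a2 (0.207 and 39.4 FPKM) and Aldh1l1 (0.0197 and 2.53 FPKM). How much of the retina Gfap level came from astrocytes and how much from Müller glia was not tested.

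The 4 neuronal members were higher in retina. Their sum was 4.40 FPKM in mNRPCs and 308 FPKM in retina. In retina the order was Nefl, Nefm, Ina and Nefh. The intervals of neighbours in this order did not overlap.

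Nefl encodes the light chain, the core subunit of neurofilaments. Its level was 1.40 FPKM (0.963 to 2.01) in mNRPCs and 208 FPKM (201 to 215) in retina. It was 149-fold lower in mNRPCs (104 to 219), or −6.44 on the log2(FPKM + 1) scale. Nefl was of rank 247 in retina and of rank 10685 in mNRPCs, and 111 genes had a lower log2 ratio. Its ratio was the lowest among the members with a pseudocount of 1. With a pseudocount of 0.1 Ina (−8.27), Krt18 (−8.06) and Nefh (−7.94), all listed at 0 in mNRPCs, came below Nefl (−7.12).

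Nefm encodes the medium chain. Its level was 3.0 FPKM (2.33 to 3.84) in mNRPCs and 45.1 FPKM (42.0 to 48.4) in retina. It was 15.0-fold lower in mNRPCs (11.6 to 19.6), or −3.52 on the log2(FPKM + 1) scale. About 64.8 Nefm fragments and 30.6 Nefl fragments stood behind the mNRPC values, both well above the limit of 3.

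The chains were not lower by the same factor. mNRPCs held 6.66% of the retina level of Nefm (5.09 to 8.59) and 0.673% of that of Nefl (0.457 to 0.957). The ratio of Nefl to Nefm was 4.61 in retina (4.26 to 4.99) and 0.466 in mNRPCs (0.293 to 0.725), so that Nefm was the higher chain in mNRPCs and Nefl in retina. Nefl and Nefm are neighbours on chromosome 14, with 30.2 kb between them. Nefl lies at chr14:68083863-68089095 on the plus strand and Nefm at chr14:68119283-68124846 on the minus strand.

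Nefh encodes the heavy chain, which is added to neurofilaments of mature axons. It was listed at 0 in mNRPCs, with a limit of 0.116 FPKM, and was at 24.5 FPKM (22.4 to 26.8) in retina. The log2(FPKM + 1) ratio was −4.67. In retina Nefl was 8.48 times Nefh and Nefm was 1.84 times Nefh. Nefh lies at chr11:4938754-4948064 on the minus strand, and the Nefh primers match Nefh-201, with a 94 bp product in the 3′ UTR of exon 4.
Nefh forward: acaagagaaacacccagaatag
Nefh reverse: acggagggaaaggaagaa

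Ina encodes α-internexin, the type IV protein of early neurons that also joins mature neurofilaments. It was listed at 0 in mNRPCs, with a limit of 0.143 FPKM, and was at 30.8 FPKM (28.2 to 33.6) in retina. The log2(FPKM + 1) ratio was −4.99. Nefl was 6.75 times Ina in retina. Ina lies at chr19:47014698-47025327 on the plus strand.

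Markers of the neurons that carry neurofilaments were lower in the same direction. For scale, 30.0% of all genes compared were lower. All 8 ganglion cell genes were lower in mNRPCs, with sums of 0.418 and 370 FPKM, and Rbpms, Sncg, Nrn1 and Stmn2 were listed at 0. As a share of retina, the mNRPC level of these genes lay between 0 and 1.47%, with a median of 0.0824%. Each of them stood under 3 fragments in mNRPCs, so this range is uncertain. Nefl at 0.673% was inside this range and Nefm at 6.66% was above it. For rods, the most numerous retinal neurons, the 7 genes lay between 0.00702% and 0.0611%, and both chains were above this range. Of 5 horizontal cell genes 3 were lower, with sums of 0.360 and 56.7 FPKM, and Lhx1 was listed at 0 in mNRPCs. The median of these 5 genes was 0.00480% of retina, which is the share of Septin4. Its mNRPC level of 0.000928 FPKM was far under 3 fragments and may be a failed estimate. Onecut1 was listed at 0 too. Onecut2, under 1 FPKM in both libraries (0.122 and 0.453 FPKM), was at 26.9%, and the others reached at most 0.676% (Calb1), so that Nefm was above all of them but Onecut2. The part of ganglion and horizontal cells in the neurofilament levels was not tested.

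**Figure D2:**
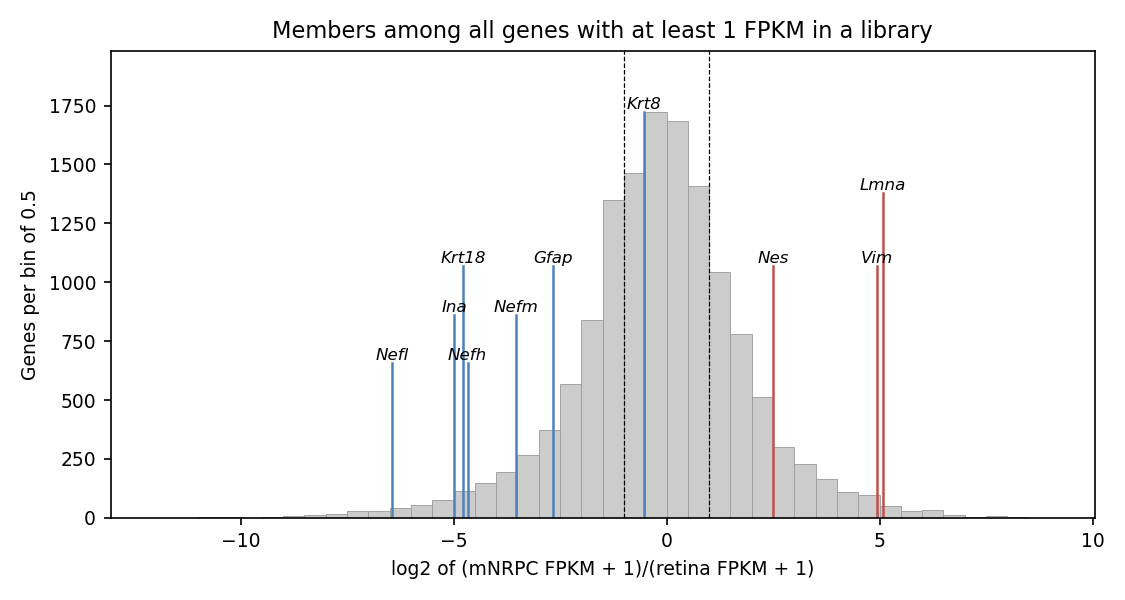
Histogram of the log2 of (mNRPC FPKM + 1)/(retina FPKM + 1) for the 13780 genes with at least 1 FPKM in either library, in bins of 0.5, with vertical lines for the members (red above 0, blue below) and dashed lines at the 2-fold threshold. Line heights only separate the names. Vim and Lmna lie in the right tail near 5, Nefl lies furthest left at −6.44, and Krt8, which did not reach 1 FPKM, is drawn at −0.54.

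Krt8 and Krt18 encode the type II and type I keratins of simple epithelia, which pair with each other. Krt8 was at 0.199 FPKM in mNRPCs, from about 2.52 fragments, and at 0.741 FPKM (0.284 to 1.45) in retina, from about 7.35 fragments. The ratio of retina to mNRPCs was 3.73 with an interval of 0.851 to 22.3, so a difference was not detectable at this depth. Krt18 was listed at 0 in mNRPCs, with a limit of 0.323 FPKM, and was at 26.5 FPKM (22.9 to 30.5) in retina, from about 193 fragments. The log2(FPKM + 1) ratio was −4.78.

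In retina the paired keratins were far from equal. Krt18 was 35.8 times Krt8 (17.9 to 94.7). Type II keratins were low as a class. The 26 type II keratin genes summed to 6.37 FPKM in retina, and the 28 type I keratin genes to 36.8 FPKM, of which 10.3 FPKM came from genes other than Krt18. Krt8 and Krt18 are neighbours on chromosome 15, with 23.7 kb between them. Krt8 lies at chr15:101996698-102004482 on the minus strand and Krt18 at chr15:102028180-102032027 on the plus strand.

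Epithelial markers were low in both libraries. The 8 epithelial genes summed to 0.979 FPKM in mNRPCs and 3.26 FPKM in retina, and the defining adhesion and junction genes Epcam, Cldn3 and Cldn4 were listed at 0 in both. Cldn7 was the 1 gene called, at 0.350 FPKM in mNRPCs and 2.54 FPKM in retina. The pigment epithelium, which lies against the retina, also makes simple keratins. Of 5 of its genes 4 were lower in mNRPCs, where 30.0% of all genes compared were, with sums of 0.0615 and 89.0 FPKM. In retina Rpe65 was at 8.53 FPKM, Rgr at 22.1 FPKM, Ttr at 56.5 FPKM, Lrat at 1.66 FPKM and Best1 at 0.215 FPKM. The part of pigment epithelium in the retina Krt18 level was not tested.

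Lmna encodes lamins A and C, the A-type lamins, which are known to rise as cells mature and in stiff surroundings. Its level was 310 FPKM (301 to 319) in mNRPCs and 8.18 FPKM (6.73 to 9.87) in retina, from about 4638 and 110 fragments. This was a 37.8-fold difference (31.3 to 46.2), or 5.08 on the log2(FPKM + 1) scale, the highest ratio among the members. With both libraries at the same FPKM sum the log2 ratio of Lmna was 4.66, outside the counting interval. Lmna was of rank 273 in mNRPCs and of rank 7456 in retina, and 126 genes had a higher log2 ratio.

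The B-type lamins did not follow Lmna. Lmnb1 stood at 37.4 FPKM in mNRPCs and 21.8 FPKM in retina, and Lmnb2 at 11.6 and 11.8 FPKM, with log2 ratios of 0.75 and −0.02. Lmna was 8.27 times Lmnb1 in mNRPCs and 0.375 times Lmnb1 in retina, so that Lmna was above both B-type genes in mNRPCs and below both in retina. With the highest transcript row of each gene only, the ratios to Lmnb1 were 4.03 and 0.167. Of the summed FPKM of the 3 lamin genes, Lmna held 86.3% in mNRPCs and 19.6% in retina.

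Lmna had 4 transcript rows. The transcript of lamin A (Lmna-201, 665 residues) was at 92.9 FPKM in mNRPCs and 3.28 FPKM in retina. The transcript of lamin C (Lmna-203, 574 residues) was at 151 and 3.65 FPKM. The ratio of lamin C to lamin A was 1.62 in mNRPCs (1.52 to 1.73) and 1.11 in retina (0.710 to 1.72), so that neither was detectably higher in retina. These intervals take the division of shared fragments between the transcripts as known, so they are too narrow. The retina values rest on about 52.5 fragments for lamin A and 37.4 for lamin C. Another transcript (Lmna-202, 462 residues) codes for lamin C2, a short form known from male germ cells. It was at 54.9 FPKM in mNRPCs, which is 17.7% of Lmna, and in retina at a value near 0, under its limit of 0.385 FPKM. A predicted row held 3.52% in mNRPCs and 15.3% in retina.

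The share of C2 against C rests on the first exons, of 76 bases in C2 and 560 bases in lamin C. In all 3 transcripts 8 exons are identical, and lamin A has a longer 3′ end of its own. The C2 transcript has a first exon of its own, of 76 bases at chr3:88493237-88493312, inside the span of the gene at chr3:88481148-88503335 on the minus strand. The 30 bases around the points where the transcripts part are shown, with capitals for the part that differs. The first pair is the junction of the first and second exon.
Lamin A and lamin C: GGAGCTGAAGGCTCGcaacaccaagaagga
Lamin C2: GAACGCGGAGGGCCGcaacaccaagaagga
The second pair is at the end of a 96 bp exon of lamin A that lamin C and C2 share in part. Lamin A has a junction there, while in lamin C and C2 the exon runs on through the capitals.
Lamin A: ctccatcaccaccgtGGTTCCCACTGCAGC
Lamin C and lamin C2: ctccatcaccaccgtGTGAGTGGCAGCCGC
Only fragments that reach the capitals of the first pair, or the exon before it, separate C2 from C. The C2 level is an estimate of the authors' program. Its 546 fragments in mNRPCs were worked out here from that level and the estimated depth, and were not counted at the junction.

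**Figure D3:**
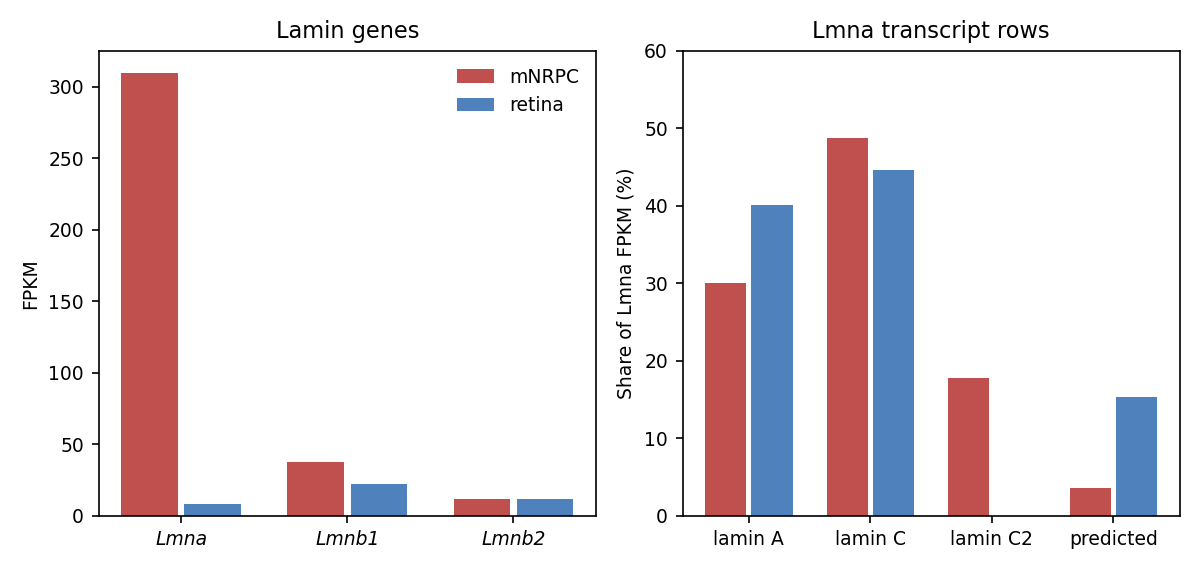
FPKM of the lamin genes (left) and share of each Lmna transcript row in the Lmna FPKM of its library in percent (right), for mNRPCs (red) and retina (blue), 1 library each. Lmna rises above Lmnb1 and Lmnb2 in mNRPCs and lies below them in retina, and lamin C2 has a visible bar in mNRPCs only.

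Promoters were looked at for Vim and Lmna, the members with the highest ratios. Sequences are from RefSeq on GRCm38.p6 and run from 250 bases before to 50 after each RefSeq start. Of the 10 members 7 had an entry, with 2 for Lmna. Motifs were searched on both strands by exact letters in all 32851 promoters. The TATA box, searched as TATAAA, was found in 13.6% of promoters. The CCAAT box was found in 37.4%. The GC box, searched as GGGCGG, was found in 35.7%. The AP-1 site, searched as TGACTCA, was found in 5.20%. Matches are shown in capitals. A match describes letters only and not a bound factor.

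The Vim promoter (chr2:13574061-13574360, plus strand) holds TATAAA 32 bases before the RefSeq start, and CCAAT letters that begin 196 and, on the other strand, 94 bases before it. It has 11 CpG dinucleotides, against a median of 7 over all promoters. The annotations differ here, since the RefSeq start lies 359 bases downstream of the start of Vim-201, and the window shown lies inside that transcript.
Vim: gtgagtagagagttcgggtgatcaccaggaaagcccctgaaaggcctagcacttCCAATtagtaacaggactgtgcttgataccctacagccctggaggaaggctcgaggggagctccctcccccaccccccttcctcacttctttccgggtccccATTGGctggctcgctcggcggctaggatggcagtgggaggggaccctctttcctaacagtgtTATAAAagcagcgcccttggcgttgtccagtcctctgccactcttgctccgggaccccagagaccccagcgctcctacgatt
The upstream Lmna promoter (chr3:88503303-88503602, minus strand) starts 17 bases before the transcript of lamin A. It holds a GC box 52 bases before the start and an AP-1 match at base 40 after it, and 1 CpG.
Lmna upstream: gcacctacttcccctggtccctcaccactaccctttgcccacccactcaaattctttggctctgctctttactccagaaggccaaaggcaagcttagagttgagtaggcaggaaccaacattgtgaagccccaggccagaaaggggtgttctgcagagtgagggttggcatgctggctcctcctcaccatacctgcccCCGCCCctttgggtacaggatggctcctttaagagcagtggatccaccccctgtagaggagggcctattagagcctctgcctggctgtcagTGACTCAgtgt
The inner Lmna promoter (chr3:88493263-88493562, minus strand) starts with the first exon of the C2 transcript. It holds CCAAT 131 bases before the start and 7 CpG. None of the other letters searched are in it.
Lmna inner: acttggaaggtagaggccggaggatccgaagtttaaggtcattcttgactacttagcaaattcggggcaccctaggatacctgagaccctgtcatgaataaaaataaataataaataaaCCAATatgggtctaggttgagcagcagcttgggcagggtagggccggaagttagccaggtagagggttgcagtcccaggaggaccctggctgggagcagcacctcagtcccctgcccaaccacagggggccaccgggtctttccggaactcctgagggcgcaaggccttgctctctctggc

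Across the whole family of 71 genes, intermediate filament transcripts summed to 3542 FPKM in mNRPCs and 543 FPKM in retina, which is 0.574% and 0.126% of all FPKM. The 10 members held 97.8% of this sum in mNRPCs and 83.0% in retina. Vim held 88.6% in mNRPCs and 18.6% in retina. Lmna held 8.74% and 1.51%. The 4 neuronal members held 0.124% in mNRPCs and 56.7% in retina, with Nefl at 38.2% of the retina sum. Keratins held 0.0602% and 7.93%. The largest single share thus passed from Nefl in retina to Vim in mNRPCs.

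**Figure D4:**
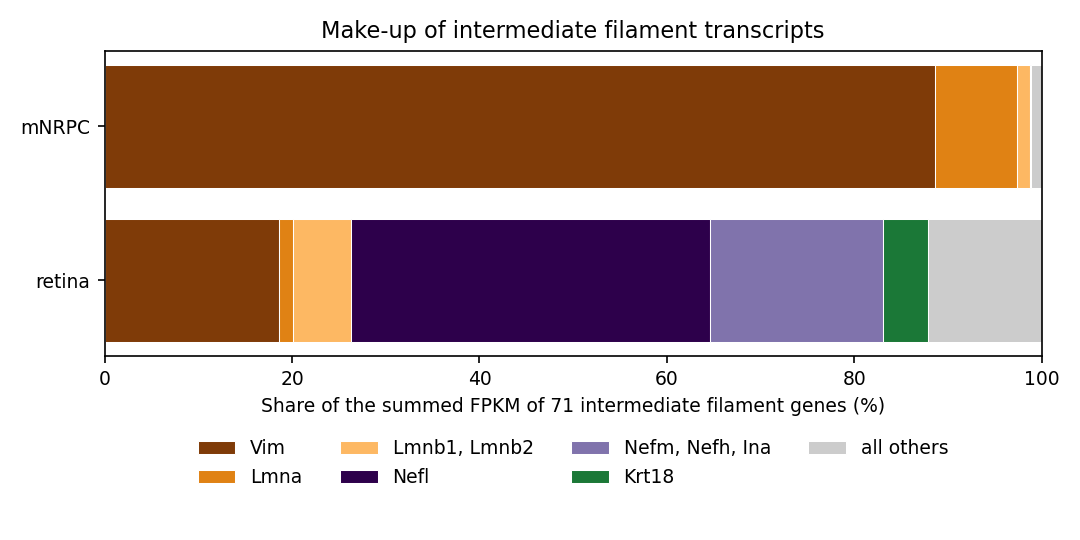
Stacked bars of the share of each gene or gene group in the summed FPKM of 71 intermediate filament genes, in percent, for the mNRPC and the retina library. Vim fills 88.6% of the mNRPC bar, and Nefl with Nefm, Nefh and Ina fills 56.7% of the retina bar.

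Lmnb1, Lmnb2 and the other genes of the family, 61 in all, were counted by the same rule. Of these, 0 were higher in mNRPCs, 7 were lower and 54 lay between, with a median log2 ratio of 0.00. With no filter 10.8% of all genes were higher and 13.2% lower. Most of the 61 were under 1 FPKM in both libraries, as 14 reached 1 FPKM in a library, and the 7 were among these 14. Among all genes that reached 1 FPKM, 24.5% were higher and 30.0% lower. After both libraries were scaled to the same FPKM sum 13 of the 61 were lower, and 42.4% of all genes compared. At 1 FPKM or more, 6 of the 61 were found in mNRPCs and 13 in retina. Synm (synemin, which joins vimentin and desmin filaments) was lower, at 0.675 FPKM in mNRPCs and 7.91 FPKM in retina. Prph (peripherin, of peripheral and some ganglion neurons) was at 0.455 and 1.43 FPKM. Iffo1 was at 16.7 and 27.7 FPKM and Iffo2 at 9.11 and 4.93 FPKM, both under 2-fold on the log2(FPKM + 1) scale. Bfsp2 (phakinin, a lens protein) was at 1.65 and 0.673 FPKM.

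Of the other keratins 7 reached 1 FPKM in a library, all at low levels. Krt12, the keratin of corneal epithelium, was at 2.32 FPKM, Krt6a at 1.98, Krt15 at 1.57, Krt5 at 1.39, Krt222 at 1.09 and Krt1 at 1.07 FPKM, and all 6 were listed at 0 in mNRPCs. Krt10 was at 1.61 FPKM in mNRPCs and 3.39 FPKM in retina, and was the only keratin at 1 FPKM or more in mNRPCs. Lens genes were set beside Bfsp2. Of 5, Crygs was at 1.46 FPKM in mNRPCs, and Cryaa, Cryba1, Mip and Lim2 were listed at 0 in both libraries.

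Genes that tie filaments to junctions and to the nucleus were also compared. Of 11 linkers, 3 were higher in mNRPCs and 1 was lower, with a median of 0.01, and 7 reached 1 FPKM in a library. Among all genes compared 24.5% were higher and 30.0% lower. With both libraries at the same FPKM sum the linker counts were 2 and 2, and the shares of all genes 18.4% and 42.4%. Plec (plectin, which crosslinks vimentin) was at 20.1 FPKM in mNRPCs and 6.56 FPKM in retina, and Jup (plakoglobin) at 18.7 and 6.47 FPKM. The third was Ppl (periplakin), at 4.67 and 0.730 FPKM, named after its values were seen. Macf1, which joins actin and microtubules, was at 7.87 and 33.2 FPKM.

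Of 11 partners of the nuclear lamina, 5 were higher in mNRPCs and 3 were lower, with a median of 0.76. The shares of all genes compared were 24.5% and 30.0%. After both libraries were scaled to the same FPKM sum, 1 partner was higher and 4 were lower, and the shares were 18.4% and 42.4%. Banf1, which binds DNA and lamin A, was at 166 FPKM in mNRPCs and 43.1 FPKM in retina. The LEM domain genes Tmpo (110 and 43.7 FPKM) and Emd (emerin, 40.0 and 17.0 FPKM) and the linker gene Sun2 (22.5 and 8.51 FPKM) were higher too. The nesprin genes, whose proteins span the outer nuclear membrane, were lower: Syne1 at 16.6 and 61.0 FPKM, Syne2 at 3.17 and 12.4 FPKM and Syne3 at 7.78 and 16.8 FPKM. Syne3 lay next to the threshold, with a log2 ratio of −1.02, and the count lower was 2 with trimmed mean of M values scaling. None of these ratios reached that of Lmna.

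Lamin A is made from prelamin A by farnesylation, trimming and methylation. Of 5 genes of this pathway, 1 was higher and 2 were lower, where 24.5% and 30.0% of all genes compared were. With both libraries at the same FPKM sum 0 were higher and 3 lower, where the shares were 18.4% and 42.4%. The count lower was 1 with trimmed mean of M values scaling. Zmpste24, the protease that releases mature lamin A, was at 32.7 FPKM in mNRPCs and 13.9 FPKM in retina. Icmt, the methyltransferase, was at 16.4 and 184 FPKM, and Rce1, a protease of the farnesylated end, at 13.9 and 29.7 FPKM. The other 2, which encode the farnesyltransferase, lay within 2-fold.

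**Figure D5:**
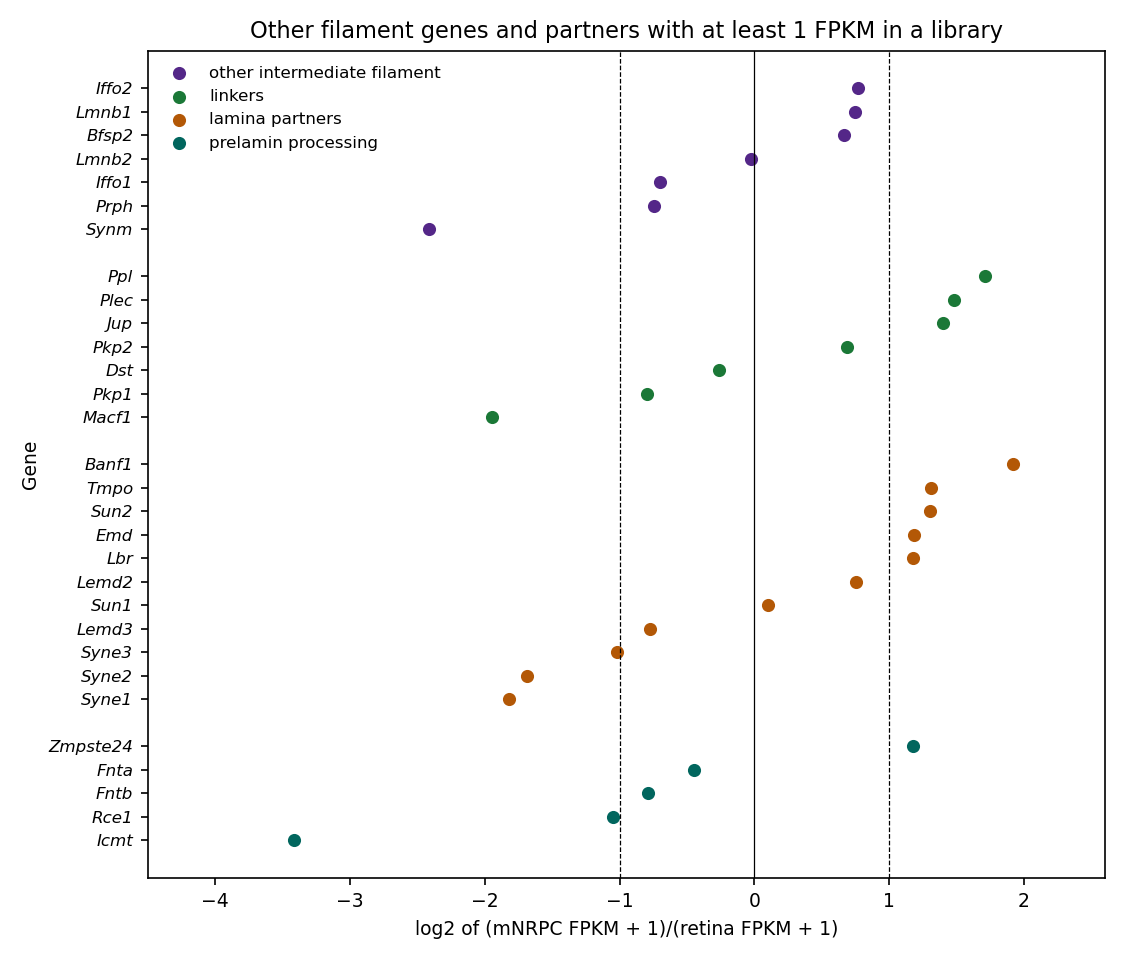
Log2 of (mNRPC FPKM + 1)/(retina FPKM + 1) for other intermediate filament genes (purple), linkers (green), lamina partners (orange) and prelamin processing genes (teal) with at least 1 FPKM in either library, keratins left out. Dashed lines mark 2-fold. Points lie between −3.41 (Icmt) and 1.92 (Banf1), a narrower range than that of the members.

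The genes nearest to the leading member of each library were looked up by distance in the pair of log2(FPKM + 1) values, which is a likeness over 2 libraries. Nearest to Vim were Cd63 (1972 FPKM in mNRPCs and 81.8 FPKM in retina), Rplp0 (2532 and 187 FPKM) and B2m (4320 and 56.7 FPKM). Nearest to Nefl were Osbp2 (1.02 and 199 FPKM), Vax2os (0.855 and 206 FPKM) and Bex2 (0.677 and 211 FPKM).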

How the data were processed

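RNA sequencing values of 2 libraries were used, 1 per group, with groups taken from the labels. The authors deposited FPKM for each RefSeq transcript, in 106754 rows. The study's methods describe Bowtie 2 alignment and eXpress estimation without versions, in a paragraph on other samples of the study. The submitters' processing notes list TopHat, TopHat2 2.0.10 and GRCm38.p3, and the sequencers named also differ, so the program behind the FPKM is not settled. Where eXpress was used, reads that fit several transcripts were divided by estimation, which makes single transcripts less certain than gene sums.

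Rows were matched without version to RefSeq gene names (GRCm38.p6) and then to GENCODE M21. In all 74283 rows (69.6%) received a symbol. They carried 93.2% of the mNRPC FPKM and 89.9% of the retina FPKM. Values under 1e-06 were read as 0. Rows were summed to 31253 genes, and 13780 genes with at least 1 FPKM in a library were compared with a pseudocount of 1. The 15 member rows included 8 members with 1 row. Depth was estimated from the step of low FPKM multiplied by length, over 6228 rows of at least 1500 bp. As values were not clean multiples of it, no count test was run. Intervals for levels are exact Poisson and those for ratios exact binomial (Clopper-Pearson). They were taken on estimated fragments rounded to whole numbers, so they are approximate. Transcript positions and exons are those of GENCODE M21 on GRCm38. Primer sequences of the study were searched in 141767 GENCODE transcripts, and the Nes pair had no exact match. The FPKM sums differed by 1.43 times and the estimated depths by 1.28 times.

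All members were named. Other filament genes were named at 1 FPKM or more, and partner genes past 2-fold with at least 5 FPKM, up to 4 each way per list. Members, gene lists and rules were chosen with earlier results of these data known. Alternatives were another pseudocount, filter, scaling, threshold, matching and summing of rows. Scripts used Python 3.11.15, pandas 2.3.3, scipy 1.17.1 and Biopython 1.88, and were tested on simulated data.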

Additional observations from a re-analysis of the deposited data

How the results depend on the processing

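No paired analysis was possible because neither group had a replicate, and no library could be left out. With both libraries as deposited, 3 members were higher and 6 lower, and the count of 3 higher held under each alternative run. The count lower was 7 with a pseudocount of 0.1, where Krt8 came to −1.49, and 7 with both libraries scaled to the same FPKM sum. Of 70 values of single members under alternatives, 53 stayed within the 95% counting interval of the main value, 17 moved out of it and 0 changed sign. The median of the members was −4.81 with a pseudocount of 0.1, −3.95 after rescaling, −3.52 over members with at least 1 FPKM in a library, and −4.42 without a pseudocount where values at or under 3 fragments were raised to that limit, an alternative chosen after seeing the data. Under the remaining alternatives it lay between −3.14 and −3.02. With no filter 10.8% of all genes were higher and 13.2% lower, since genes near 0 in both libraries then enter.

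Of all genes called, 44.9% were higher as deposited, 30.2% after rescaling and 50.9% with a filter of 5 FPKM. Over all genes the median was −0.12, and −0.68 with rescaling. Relative to it the members' median was −2.97 and −3.27. Scalings of the other lists were tried after seeing the data. After rescaling, 13 other filament genes were lower in place of 7, 2 linkers were lower in place of 1 and 2 higher in place of 3, 1 lamina partner was higher in place of 5 and 4 lower in place of 3, and 0 prelamin processing genes were higher in place of 1 and 3 lower in place of 2. With trimmed mean of M values scaling 1 processing gene was lower in place of 2, and 2 lamina partners in place of 3. With the highest row of each gene only, the ratio of Lmna to Lmnb1 was 4.03 in mNRPCs and 0.167 in retina, and that of Lmna to Lmnb2 was 13.0 and 0.309. Depth limits Krt8. It also sets the limit of detection of the members listed at 0 in mNRPCs, whose zeros may instead be failed estimates. With other length limits the retina depth was 4.90e+06 to 5.51e+06 fragments.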
